A study of Mus musculus with 4 samples.

Results

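Polyamine synthesis and turnover was followed through 8 genes in mouse natural killer T (NKT) cells, a class of T cell with a nearly fixed antigen receptor for lipids bound to CD1d. The 8 genes were listed by symbol: Odc1, Amd1, Srm and Sms for synthesis, Sat1 for turnover, the antizymes Oaz1 and Oaz2, and the antizyme inhibitor Azin1. All 8 were among the 12020 genes of the count table, and all 8 passed the filter on low counts with 11312 genes in all. The set was proposed with the contrast of stimulated against resting cells in view, so the values of the 8 genes in that contrast are a description and carry no p-value here. They are given with the share of all genes that passed the same threshold, and nothing is read from their count.

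The cells carried a Vα14 receptor transgene and GFP in place of 1 copy of Cxcr6 on the C57BL/6 background, and were sorted for high GFP from mice aged 10 to 12 weeks, with liver given as the tissue. Both groups shared this genotype and sort. Resting cells were left unstimulated, and the tetramer group was kept on a plate surface bearing tetramers of mouse CD1d with the lipid PBS57, an antigen for their receptor. The labels used here state no time of stimulation. The transgene supplies a fixed receptor α chain, and the share of sorted cells that bind the tetramer was not measured here. Each group held 2 libraries, called here by the numbers 4 and 5 of their column names. No label ties the libraries to separate mice, so the p-values take in only library-to-library spread, part of which may be technical. The sort protocol also names spleen and the RNA protocol names islets.

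Polyamines are small positively charged molecules, chiefly putrescine, spermidine and spermine, that bind nucleic acids and are needed for growth and translation. Ornithine decarboxylase makes putrescine, and spermidine and spermine synthases add aminopropyl groups that come from decarboxylated S-adenosylmethionine. Antizymes bind ornithine decarboxylase and deliver it to the proteasome, and they are made only when polyamines promote a ribosomal frameshift on their mRNA, while the antizyme inhibitor, an inactive relative of the decarboxylase, draws antizymes away from it. T cells are known to raise polyamine synthesis when activated, and spermidine is the donor for the hypusine residue of the translation factor eIF5A.

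The stretches upstream of 3 of the genes are shown because these genes represent the entry enzyme (Odc1), a downstream synthase (Sms) and an antizyme (Oaz1). The sequences are those of RefSeq on build GRCm38.p6, another build than the mm9 that the submitters' processing notes name. A start site was found there for 6 of the 8 genes, leaving Srm and Azin1 without one, and Sms had 2 starts. Matches to 4 motifs, searched on both strands, stand in capitals. The E-box bound by Myc and related factors was searched as CACGTG. A GC box, the usual site of Sp family factors, was searched as GGGCGG. The AP-1 motif was searched as TGANTCA. The last was the TATA box, searched as TATAAA. Bases that GENCODE annotates as exon were left out of the printed runs.
Odc1, chr12:17544623-17544793, plus strand: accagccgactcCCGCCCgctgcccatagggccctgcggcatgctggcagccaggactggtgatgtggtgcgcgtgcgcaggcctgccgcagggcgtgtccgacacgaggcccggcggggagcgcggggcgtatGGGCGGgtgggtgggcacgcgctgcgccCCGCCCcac
Sms, upstream start, chrX:157492288-157492537, minus strand: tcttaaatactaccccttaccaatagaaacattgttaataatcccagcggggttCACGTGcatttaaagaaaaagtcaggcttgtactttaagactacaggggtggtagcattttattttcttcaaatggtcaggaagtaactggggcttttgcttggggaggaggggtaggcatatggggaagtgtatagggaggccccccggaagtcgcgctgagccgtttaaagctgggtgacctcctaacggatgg
Sms, downstream start, chrX:157491373-157491618, minus strand: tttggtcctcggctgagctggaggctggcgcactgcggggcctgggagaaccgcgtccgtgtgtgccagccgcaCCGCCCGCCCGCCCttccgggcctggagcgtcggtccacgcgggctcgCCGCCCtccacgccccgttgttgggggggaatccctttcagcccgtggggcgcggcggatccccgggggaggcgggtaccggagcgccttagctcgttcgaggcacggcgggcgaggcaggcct
Oaz1, chr10:80826406-80826655, plus strand: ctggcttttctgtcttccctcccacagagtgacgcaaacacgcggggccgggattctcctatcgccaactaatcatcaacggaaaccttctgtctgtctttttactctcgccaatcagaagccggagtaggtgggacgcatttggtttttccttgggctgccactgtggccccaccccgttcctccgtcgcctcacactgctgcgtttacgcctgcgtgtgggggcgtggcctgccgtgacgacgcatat
In the printed Odc1 stretch 3 GC boxes were found, and 4 in its whole window of 250 bases before the start. The downstream Sms start had 4 GC boxes, of which 3 overlap in a single run, and the upstream Sms start had 1 E-box and 0 GC boxes. The Oaz1 window held none of the 4 motifs. Over the 7 windows of the 6 genes, 5 held a GC box, beside 32.7% of all 32851 windows of the same length, and 1 held an E-box, beside 6.02%. The AP-1 motif and the TATA box were found in 0 of the 7, beside 6.75% and 12.4% of all windows. These matches describe letters in short windows and show no binding. Bases after the start or farther upstream were not searched, so a motif missing here may lie there.

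Library totals ranged from 4168438 to 5495521 counts, and levels below are in CPM, counts divided by library sizes that were scaled by TMM, edgeR's trimmed mean of M values. All 10 T and NKT cell markers of a fixed list had rows in the table, with a summed level between 2673 and 3658 CPM in the 4 libraries. Ifng, the interferon made by stimulated NKT cells, went from 14.7 and 21.2 CPM at rest to 1488 and 762 CPM, and the receptor-induced factor Egr2 from 6.63 and 14.5 to 188 and 224 CPM, while Nr4a1 had too few counts to be tested. Markers of 6 other cell types were lower in sum in both tetramer libraries, and those of islets overlapped between groups: 2 of 6 hepatocyte markers were listed, at 24.9 and 37.2 CPM at rest and 8.18 and 11.5 CPM after stimulation in sum, 3 of 8 macrophage markers at 20.3 and 25.6 against 8.18 and 9.71 CPM, and 4 of 4 B cell markers at 21.3 and 29.7 against 13.3 and 16.6 CPM. Both neutrophil markers summed to 19.5 and 18.0 against 1.84 and 3.24 CPM, 1 of 3 endothelial markers lay at 75.0 and 28.8 against 10.2 and 15.8 CPM, and 4 of 4 erythroid markers at 138 and 393 against 35.0 and 79.5 CPM. The 4 islet hormone genes summed to 259 and 961 CPM at rest and 229 and 421 CPM after stimulation, so that these groups overlapped. The table lists only genes with at least 1 count in every library, and the remaining markers, such as Alb and C1qa, are not analysed here. The part of these cells in the results below was not tested. In bulk RNA, fewer cells of a type and less RNA per cell cannot be told apart.

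The enzymes that make putrescine, spermidine and spermine were higher after stimulation, most of all the spermidine synthase Srm. Odc1, the decarboxylase that turns ornithine into putrescine, had 484 counts in resting library 4 and 701 in resting library 5, against 3348 in tetramer library 4 and 3280 in tetramer library 5. On the scaled level this was 125 ± 35.0 CPM at rest and 674 ± 15.3 CPM after stimulation (SD, n = 2 each), a 5.39-fold higher mean and a log2 fold change of 2.43 ± 0.39 (SE). The tetramer libraries lay close together and both stood 4.43-fold or more above the higher resting library.

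Srm, which adds an aminopropyl group to putrescine to make spermidine, had 56 and 60 counts at rest and 1784 and 951 after stimulation. Between libraries 4 and 5 the level was 11.6 and 12.8 CPM at rest and 365 and 192 CPM after stimulation. The means differed 22.8-fold, and the log2 fold change was 4.51 ± 0.45 (SE). This was the 47th highest log2 fold change of the 11312 genes tested. The resting libraries were nearly equal, and tetramer library 4 was 1.90-fold above tetramer library 5, which itself was 15.0-fold above the higher resting library.

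Sms, the synthase of the next step from spermidine to spermine, had 431 and 299 counts at rest and 1158 and 1148 after stimulation. Its level was 76.6 ± 18.0 CPM at rest and 235 ± 3.35 CPM after stimulation (SD, n = 2 each), a log2 fold change of 1.61 ± 0.37 (SE). Both synthases were thus higher in both tetramer libraries, but not in proportion. Srm counts per Sms count were 0.130 and 0.201 at rest (libraries 4 and 5) and 1.54 and 0.828 after stimulation, a 7.17-fold higher mean ratio.

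Amd1 encodes the decarboxylase that prepares S-adenosylmethionine as aminopropyl donor for both synthases. It had 141 and 74 counts at rest and 236 and 154 after stimulation, levels of 29.2 and 15.8 against 48.3 and 31.2 CPM. The lower tetramer library was only 1.07-fold above the higher resting library, and the log2 fold change was 0.82 ± 0.46 (SE), which did not pass the threshold. Mouse Amd2 is a close copy whose reads the counting could have exchanged with those of Amd1. Amd1 took between 43.3% and 53.0% of the counts of the pair in the 4 libraries, and the pair summed to 55.1 and 36.5 CPM at rest and 96.8 and 69.6 CPM after stimulation. Per Odc1 count, the pair had 0.550 and 0.244 counts at rest and 0.141 and 0.105 after stimulation, a ratio given without a test.

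**Figure D1:**
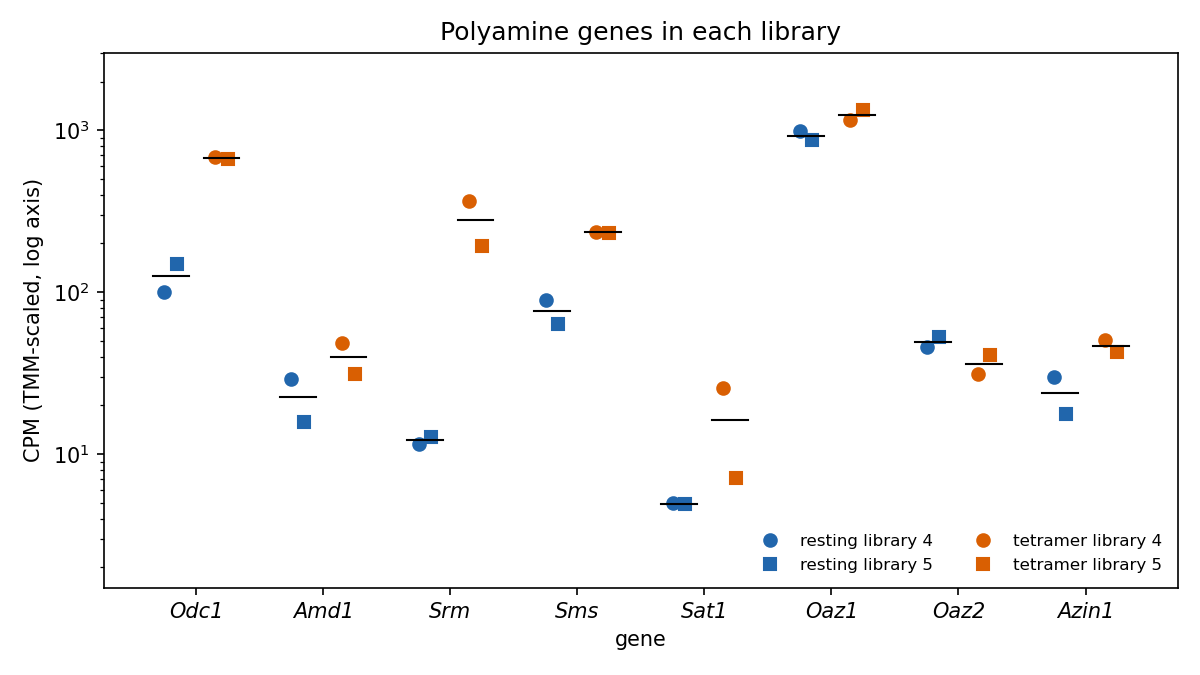
TMM-scaled CPM (log axis) of the 8 polyamine genes in resting (blue) and tetramer (orange) libraries 4 (circles) and 5 (squares), with black bars at the group means. The groups of Odc1, Srm and Sms stand well apart, those of Amd1 nearly touch, and Sat1 is split between the tetramer libraries at 25.6 and 7.08 CPM.

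Sat1, the acetyltransferase that marks spermidine and spermine for export or oxidation, was the least even of the 8 after stimulation. It had 24 and 23 counts at rest, and 125 in tetramer library 4 but 35 in tetramer library 5. The levels were 4.97 and 4.91 CPM at rest and 25.6 and 7.08 CPM after stimulation, a mean of 4.94 ± 0.0405 against 16.3 ± 13.1 CPM (SD, n = 2 each). Its log2 fold change of 1.72 ± 0.62 (SE) passed the threshold with all libraries. Without tetramer library 4 it was 0.53 ± 0.93 and did not pass. It did not pass with library totals (1.41) or by limma-voom (1.42) either.

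Neither antizyme passed the threshold in either direction. Oaz1 had 4768 and 4057 counts at rest and 5639 and 6641 after stimulation, levels of 927 ± 85.5 and 1249 ± 134 CPM (SD, n = 2 each). On this TMM scale the tetramer libraries were both higher, by a log2 fold change of 0.43 ± 0.37 (SE) that did not pass the threshold. Oaz2, a second antizyme, was the only member with a negative log2 fold change, of -0.45 ± 0.41 (SE), which did not pass either. It had 221 and 249 counts at rest and 153 and 203 after stimulation, or 49.5 ± 5.25 and 36.2 ± 6.90 CPM (SD, n = 2 each). Oaz1 has processed pseudogenes that could share its reads.

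Azin1, the antizyme inhibitor, had 144 and 83 counts at rest and 249 and 210 after stimulation. Its level was 23.8 ± 8.55 CPM at rest and 46.7 ± 5.99 CPM after stimulation (SD, n = 2 each), a log2 fold change of 0.97 ± 0.44 (SE) that did not pass the threshold. Without resting library 4, the higher of the resting pair, it was 1.41 ± 0.54 and passed. The groups did not overlap, and the lower tetramer library was 1.42-fold above the higher resting library.

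Ratios of raw counts within a library need no scaling factor and show how the regulators stood against Odc1. Resting library 4 had 9.85 Oaz1 counts per Odc1 count and resting library 5 had 5.79, against 1.68 and 2.02 after stimulation, a mean 4.22-fold lower after stimulation. Oaz2 went from 0.457 and 0.355 counts per Odc1 count to 0.0457 and 0.0619, a mean 7.55-fold lower. Azin1 went from 0.298 and 0.118 to 0.0744 and 0.0640 counts per Odc1 count, a mean 3.01-fold lower. For each of the 3 regulators both tetramer libraries lay below both resting libraries. These ratios carry the difference of Odc1 itself, which had the 435th highest log2 fold change of the 11312 genes tested. Most genes would therefore also be lower per Odc1 count, and the share of all genes with this pattern was not computed. In TMM-scaled CPM the levels of Oaz1 and Azin1 themselves were higher in both tetramer libraries. For Oaz1 this depends on the scaling. Per unscaled library total, resting library 4 stands above tetramer library 4, and the log2 fold change was 0.13. Set against Oaz1 instead, there were 3.02 and 2.05 Azin1 counts per 100 Oaz1 counts at rest and 4.42 and 3.16 after stimulation, with only a small gap between the groups. Transcript lengths remain in these ratios, so only their differences between libraries are described, and they say nothing of protein amounts.

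**Figure D2:**
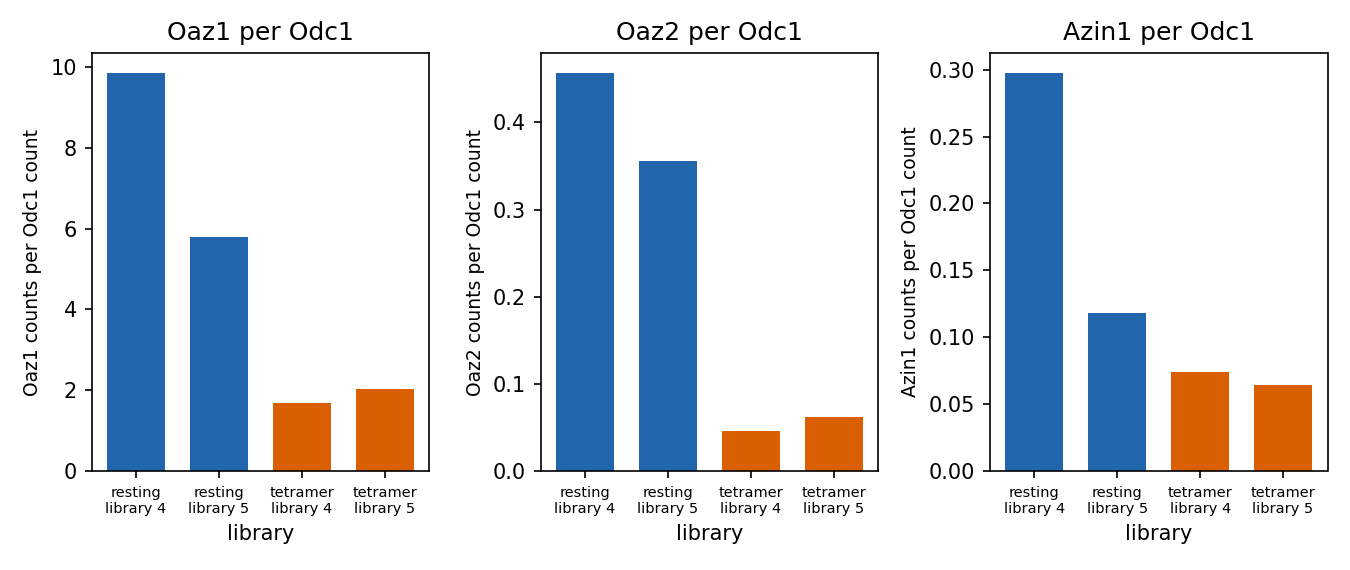
Counts of Oaz1, Oaz2 and Azin1 per Odc1 count (linear axes from 0) in each of the 2 resting (blue) and 2 tetramer (orange) libraries, 1 bar per library. In each panel both tetramer bars are below both resting bars, with Oaz1 at 9.85 and 5.79 at rest and 1.68 and 2.02 after stimulation. Odc1, the denominator, was itself higher in both tetramer libraries.

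Together the 8 genes made up 1504 and 1251 CPM of the unscaled totals at rest and 2310 and 2338 CPM after stimulation. The composition of this sum differed as well. Oaz1 took 76.1% and 73.2% of it at rest and 44.4% and 52.6% after stimulation, and Odc1 took 7.72% and 12.6% at rest and 26.4% and 26.0% after stimulation. These are shares of counts, which also depend on transcript length.

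Of the 8 genes, 4 (Odc1, Srm, Sms and Sat1) were past an adjusted p of 0.05 upward in edgeR's quasi-likelihood test, where 14.3% of all genes tested were. Downward, 0 of the 8 were past it, where 12.1% of all genes were, which makes 4 of 8 in either direction beside 26.4%. The count downward was also 0 at an unadjusted p of 0.05 and by DESeq2 and limma-voom. In TMM-scaled CPM the groups did not overlap for any of the 8, beside 65.2% of all genes. On that scale the tetramer libraries were both above the resting libraries for 7 of the 8, beside 31.6%. Both were below for Oaz2, beside 33.7%. Per unscaled library total, the groups of Oaz1 and of Amd1 overlap, and the share of all genes was not computed on that scale. The median log2 fold change was 1.29 over the 8 genes, with a range from -0.45 to 4.51, and -0.06 over all genes tested. With library totals in place of TMM factors the median of all genes was -0.35, and the calls over all genes split into 1193 higher and 2250 lower in place of 1620 and 1366, so all directions are relative to the TMM scaling. The direction of each of the 8 genes was the same under TMM, DESeq2 size factors and library totals, where Oaz1 was at its lowest, 0.13, and Oaz2 at -0.74.

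**Figure D3:**
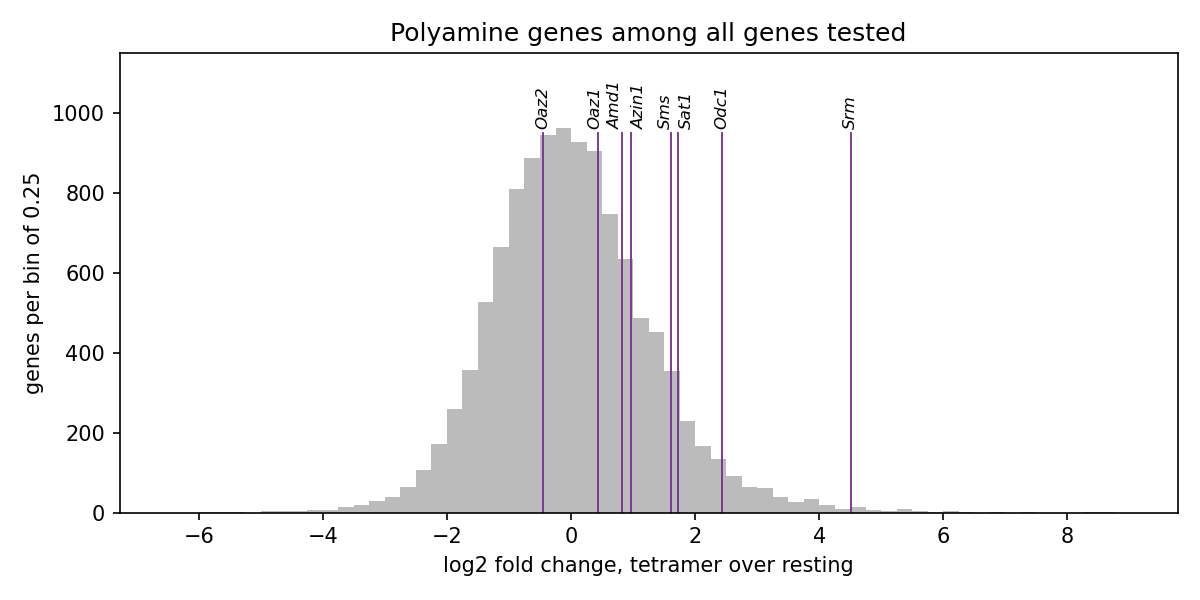
Histogram of log2 fold changes (tetramer over resting, x axis) of the 11312 genes tested, as genes per bin of 0.25 (y axis), with vertical lines at the 8 polyamine genes. Srm at 4.51 and Odc1 at 2.43 lie toward the upper end, and Oaz2 at -0.45 and Oaz1 at 0.43 lie in the body of the distribution.

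The genes around the pathway were taken from a list of 34 chosen by role, of which 24 were in the table and 23 were tested. Of these, 10 rose and 2 fell by the same test and threshold, beside 14.3% and 12.1% of all genes, with a median log2 fold change of 0.95. Without tetramer library 4 only 3 rose and 1 fell, without tetramer library 5 it was 6 and 1, and with library totals 6 rose and 3 fell.

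Of 5 tested genes grouped under ornithine supply, 3 rose and 0 fell (also 0 at an unadjusted p of 0.05), beside 14.3% and 12.1% of all genes. Arg1, Arg2 and Otc, listed under the same role, had no row in the count table. RNA levels do not show in which direction Oat converts ornithine or Slc25a15 carries it, so ornithine supply itself was not measured. Without tetramer library 4, the rise of Slc7a1 alone was called. Slc7a1, a carrier that brings arginine and ornithine into the cell, had 355 and 266 counts at rest and 936 and 1434 after stimulation, a log2 fold change of 1.88 ± 0.38 (SE, edgeR adjusted p = 0.000707). Oat, the mitochondrial ornithine aminotransferase, rose from 13.1 ± 8.19 to 51.0 ± 19.3 CPM (SD, n = 2 each, edgeR adjusted p = 0.00449), a log2 fold change of 1.96 ± 0.49 (SE). It was 2.82 without resting library 4 and 1.46 without resting library 5, and 1.53 without tetramer library 4, where the call was lost. Slc25a15, the mitochondrial ornithine carrier, rose from 3.73 and 6.20 CPM to 19.2 and 21.0 CPM (edgeR adjusted p = 0.00907), a log2 fold change of 2.02 ± 0.56 (SE). Without tetramer library 4 or 5 its size was 2.10 or 1.96, but it was no longer called. Aldh18a1, which starts proline and ornithine synthesis from glutamate, was at 30.9 and 32.1 CPM at rest and 34.6 and 27.5 CPM after stimulation, and did not pass. A second cationic amino acid carrier, Slc7a2, was at 27.3 and 63.3 CPM at rest and 18.0 and 35.2 CPM after stimulation, overlapping groups that did not pass.

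Of 7 tested genes of methyl donor supply and methylthioadenosine salvage, 3 rose and 1 fell, beside the same 14.3% and 12.1%. The catalytic subunit that makes S-adenosylmethionine, Mat2a, and its regulatory subunit, Mat2b, went in opposite directions. Mat2a had 425 and 398 counts at rest and 1731 and 1361 after stimulation, a log2 fold change of 1.86 ± 0.37 (SE, edgeR adjusted p = 0.000614). Mat2b had 1094 and 380 counts at rest and 145 and 121 after stimulation, a log2 fold change of -2.51 ± 0.44 (SE, edgeR adjusted p = 0.000160). Both tetramer libraries were low for Mat2b, while resting library 4 was 2.79-fold above resting library 5. Its log2 fold change was -1.57 without resting library 4 and -3.04 without resting library 5, and was called in both fits. Mtap, which cleaves the methylthioadenosine left by both aminopropyl transfers, rose from 37.7 ± 10.2 to 92.8 ± 21.9 CPM (SD, n = 2 each, edgeR adjusted p = 0.0170), a call lost without resting library 4 (log2 fold change 1.06), without tetramer library 4 (1.05) or with library totals (1.01). Among the later salvage enzymes, Enoph1 had 20 and 9 counts at rest and 70 and 41 after stimulation, and its rise (log2 fold change 1.89 ± 0.65, edgeR adjusted p = 0.0326) was not called without tetramer library 4 (1.46), without tetramer library 5 (2.23), without resting library 5 (1.47) or with library totals (1.57). Adi1, another, was at 89.3 and 41.9 CPM at rest and 30.7 CPM in both tetramer libraries, lower in both but not past the threshold (edgeR adjusted p = 0.0586). Mri1 and Apip did not pass either and their groups overlapped.

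In catabolism 1 of 2 tested genes rose, and in transport 0 of 4 rose and 1 fell, beside 14.3% and 12.1% of all genes. Paox, the oxidase that acts on the products of Sat1, had 14 and 15 counts at rest and 54 and 45 after stimulation (log2 fold change 1.71 ± 0.63 SE, edgeR adjusted p = 0.0453), a call lost when any 1 of the 4 libraries was left out, with values from 1.59 to 1.85, and with library totals (1.42). Smox, which oxidises spermine directly, was at 31.9 and 36.8 CPM at rest and 32.7 and 55.0 CPM after stimulation, and did not pass. Slc18b1, a vesicular polyamine transporter, fell from 34 and 105 counts to 15 and 14 (log2 fold change -2.31 ± 0.66 SE, edgeR adjusted p = 0.0107). Its fall was -1.22 without resting library 5 and was then no longer called, nor was it without either tetramer library. The polyamine transporters Atp13a2 and Atp13a3 had log2 fold changes of -0.31 ± 0.43 and -0.35 ± 0.45 (SE), and Slc3a2, the heavy chain of several amino acid carriers, 0.63 ± 0.38 (SE), all short of the threshold.

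Hypusination uses spermidine to modify eIF5A. Eif5a itself rose from 264 and 635 counts to 4620 and 1648, with both tetramer libraries above both resting ones but tetramer library 4 2.84-fold above tetramer library 5. Its log2 fold change was 2.75 ± 0.47 (SE, edgeR adjusted p = 0.000120) with a range of 1.83 to 3.57 over the fits that each left out 1 library, and it has processed pseudogenes that could share reads. Dhps, deoxyhypusine synthase, rose from 97.4 and 109 CPM to 176 and 233 CPM (edgeR adjusted p = 0.0456), a log2 fold change of 0.99 ± 0.37 (SE). The call was lost when any 1 library was left out, with values from 0.78 to 1.19, and with library totals (0.70). Dohh, the hydroxylase that completes hypusine, was at 29.8 and 33.3 CPM at rest and 76.9 and 45.3 CPM after stimulation, without passing (edgeR adjusted p = 0.0908). Eif5a2 had too few counts to be tested.

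Myc, a transcription factor known to act on Odc1, had few counts, 5 and 3 at rest and 41 and 11 after stimulation. It rose by a log2 fold change of 2.62 ± 0.80 (SE, edgeR adjusted p = 0.0163), a call lost by limma-voom (2.26). Without tetramer library 4, and under the stricter filter, it had too few counts to be tested. Amd2, the copy of Amd1 described above, was at 25.9 and 20.7 CPM at rest and 48.5 and 38.4 CPM after stimulation, and did not pass (edgeR adjusted p = 0.123).

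**Figure D4:**
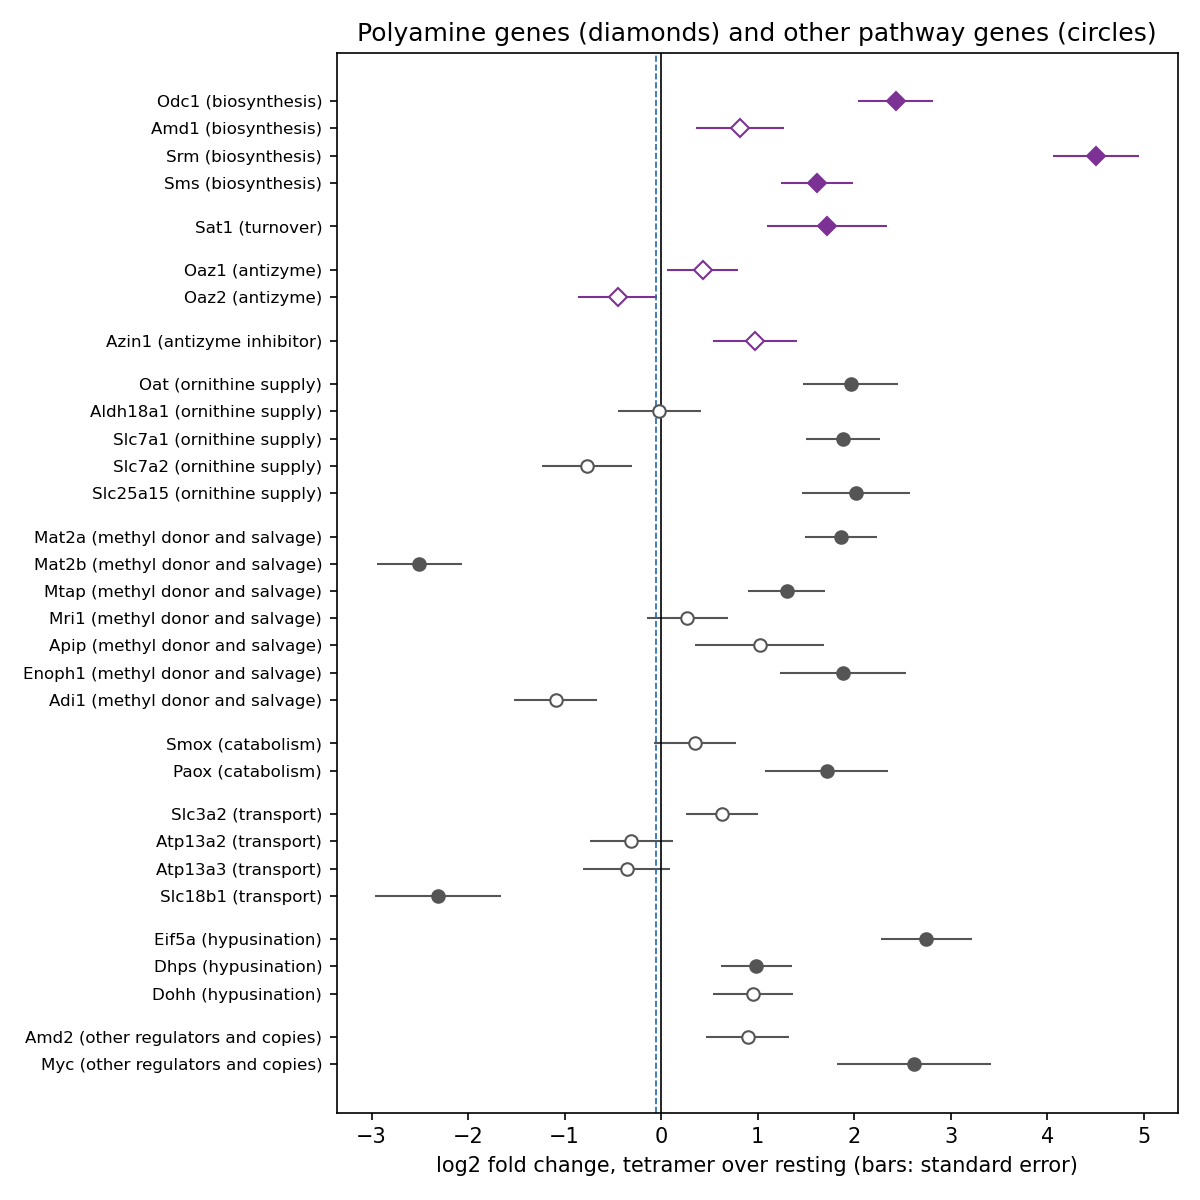
Log2 fold change (tetramer over resting, x axis) with its standard error for the 8 polyamine genes (purple diamonds) and the 23 other pathway genes tested (grey circles), grouped by role, with filled symbols past an adjusted p of 0.05 and a dashed line at the median of all genes. Srm at 4.51 lies highest, and Mat2b at -2.51 and Slc18b1 at -2.31 lowest.

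The genes nearest to Odc1 in profile were sought among 7385 genes outside these lists with a mean of at least 10 CPM, by the root mean square difference of centred log2 CPM over the 4 libraries. They were Ptpn6 (a phosphatase of receptor signalling, difference 0.07), Mcm5 (a subunit of the replicative helicase, 0.07), St6galnac4 (a sialyltransferase, 0.07), Wdr12 (a ribosome assembly factor, 0.08) and Mad2l2 (0.09). Ptpn6 was at 39.2 and 53.6 CPM at rest and 257 and 229 CPM after stimulation. Mcm5 was at 32.1 and 49.1 CPM at rest and 243 and 240 CPM after stimulation, the same order of libraries within each group as Odc1. Within the polyamine set the nearest to Odc1 was Sms, at 0.56, and the farthest was Oaz2, at 1.47, while Srm at 1.03 was farther than Sat1 at 0.85 and Azin1 at 0.87. With 4 libraries in 2 groups, such likeness mostly reflects the size of the difference between groups.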

How the data were processed

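RNA was enriched for polyadenylated transcripts, and cDNA of 200 to 400 nt was amplified with 23 cycles of PCR, per the labels' protocols. The authors deposited raw read counts per gene symbol for 4 libraries. Bowtie2, DESeq2 and build mm9 stand in the submitters' processing notes. The counter and its handling of strand and shared reads were not given in the sources used here. Columns were matched to groups by name, and 0 columns of other series were found. Of 12021 rows, 1 was left out because a cell was not a number. The test was that of edgeR 4.0.16, run in R 4.3.3 (default expression filter, TMM, quasi-likelihood F test, Benjamini-Hochberg over 11312 genes, threshold 0.05). The code of the fit was also run on simulated counts, with a common spread for all genes and few genes changed. That setting differs from these data, so the run says nothing of the error rates here. CPM uses TMM-scaled library sizes, and the SE comes from the F statistic. The common biological coefficient of variation was 0.322, with 2 residual degrees of freedom. DESeq2 1.42.0 and limma-voom (limma 3.58.1) were alternatives, with other scalings, filters, a replicate block and each library left out.

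The members and lists were chosen with earlier results of these data known. Named genes were all 8 members and, per role, up to 3 other pathway genes past the threshold with the largest change or else the smallest p. They also included the 5 profiles nearest to Odc1, with gene models left out of that search, and Ifng, Nr4a1 and Egr2. Aldh18a1, Slc7a2, Mtap, Adi1, Mri1, Apip, Smox, Slc3a2, Atp13a2, Atp13a3, Dohh, Eif5a2 and Amd2 fell outside this rule and were named after their values were seen. A planned comparison of protein sequences was not run.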

Additional observations from a re-analysis of the deposited data

How the results depend on the processing

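Of the 8 genes, 4 were called higher with all libraries. The count was 3 with library totals and by limma-voom, 4 with DESeq2 size factors, by DESeq2's own test, with no filter and with the stricter filter, and from 3 to 5 with single libraries left out. In every one of these settings Odc1, Srm and Sms were called, and 0 of the 8 were called lower. Over all genes, single libraries left out gave 622 to 1629 calls higher and 313 to 1488 lower, and library totals gave 2250 lower. The count of other pathway genes that rose was 6 with library totals and from 3 to 7 with single libraries left out, and of those that fell from 1 to 3. Each such fit leaves 1 library alone in its group, which is taken to vary like the other group's pair. The cause of these shifts was not tested. Counting 1 result for each alternative and each of the 8 genes and the 12 other pathway genes called, 189 kept their direction and side of the threshold, 28 lost the call, 1 gained it and 0 changed sign. Among them, the log2 fold change of Sat1 ranged from 0.53 to 2.37 and that of Srm from 3.99 to 4.91. With the column numbers 4 and 5 as a replicate block, 4 of the 8 genes and 9 other pathway genes were called higher (Dhps, at 0.98 on the log2 scale, was lost), with 1693 higher and 1468 lower over all genes. The correlation across genes of the 4 minus 5 difference between groups was 0.05, and nothing in the labels says that these numbers pair the libraries. Sat1, Myc, Enoph1, Paox and Apip had 24 or fewer counts in each resting library, which limits the precision of their values.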
